A study of Mus musculus with 36 samples.

Results

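The microRNAs (miRNAs) miR-193a, miR-193b and miR-365 come from a pair of gene clusters, of which that of miR-193b is known from brown adipocytes. The 5 mature miRNAs followed here, mmu-miR-193a-5p, mmu-miR-193a-3p, mmu-miR-193b-5p, mmu-miR-193b-3p and mmu-miR-365-3p, were taken by name from 1966 in a small RNA count table. The 5p arms of miR-365 are no members and serve only to tell its precursors apart. Small RNA was sequenced from liver and from epididymal white adipose tissue (eWAT, a visceral fat depot) of C57BL/6 wild-type (WT) male mice of the F1 generation, aged 24 weeks. Each tissue had 6 libraries in each of 3 groups named LF, HF and HFLF, 36 libraries in all. All mice had chow up to 6 weeks of age and the study diet for the 18 weeks after it. The diet tags of the groups read LFD, HFD and HFLFD, whereas the treatment text of every sample names LFD, so the labels leave unsaid whose diet a group name gives. The groups are called by name here. Nothing in the labels says that replicates are separate mice, and p-values measure the spread between these libraries, which may be technical.

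A miRNA gene makes a hairpin whose 5p and 3p arms can each become a mature miRNA, and the arm loaded into Argonaute pairs with messenger RNAs mainly through its seed, bases 2 to 8. The miR-193b and miR-365 cluster is known for its enrichment in brown fat, and it was reported to promote brown adipocyte differentiation by repressing Runx1t1, although mice without the cluster were later reported to form brown fat. No brown fat library was analysed here, so the levels of these miRNAs in brown adipocytes were not measured, and the libraries show them in liver and in a white depot.

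All 5 members, and the 5p arms that tell the miR-365 precursors apart, matched an entry of the RefSeq miRNA table for GRCm38.p6. They are shown 5′ to 3′ with the seed in capitals, because the seeds decide which counts can be added up as the same activity and which cannot.
mmu-miR-193a-3p: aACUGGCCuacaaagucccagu
mmu-miR-193b-3p: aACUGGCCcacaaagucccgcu
mmu-miR-193a-5p: uGGGUCUUugcgggcaagauga
mmu-miR-193b-5p: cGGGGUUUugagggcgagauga
mmu-miR-365-3p: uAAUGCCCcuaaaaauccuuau
mmu-miR-365-1-5p: aGGGACUUuugggggcagaugug
mmu-miR-365-2-5p: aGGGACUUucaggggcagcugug
The 3p arms of miR-193a and miR-193b share the seed ACUGGCC. Counted from the 5′ end, they differ at 3 of 22 positions, U9C, A20G and G21C, with the miR-193a base first. Their 5p arms differ at 5 positions, U1C, U5G, C6U, C11A and A16G, and U5G and C6U lie in the seed. No other mature miRNA of the table has the seed of miR-193a-5p, miR-193b-5p or miR-365-3p. The 5p arms of miR-365-1 and miR-365-2 share a seed and differ at U10C, G11A and A19C, with the miR-365-1 base first.

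The clusters lie on different chromosomes. Mir193a (chr11:79711969-79712034) and Mir365-2 (chr11:79726400-79726511) are on the plus strand with 14365 bases between the hairpins, and both are intergenic in GENCODE M21. The nearest protein-coding gene is Rab11fip4, upstream on the same strand. Mir193b (chr16:13449523-13449601) and Mir365-1 (chr16:13453840-13453926) are 4238 bases apart on the plus strand and lie in an intron of the antisense gene Gm15738, which runs on the minus strand. The nearest protein-coding gene there is Mrtfb. Both miR-365 hairpins end in the same mature 3p arm, and the lines of miR-365-3p for the 2 precursors held 293904 and 293960 counts, 0.0191% apart, so its counts cannot be assigned to a chromosome. The arms of miR-193a, of miR-193b and the miR-365 5p arms can be assigned by sequence. The RefSeq hairpins of miR-193a and miR-193b, with both arms in capitals, show the arms whose balance is described further on.
Mir193a: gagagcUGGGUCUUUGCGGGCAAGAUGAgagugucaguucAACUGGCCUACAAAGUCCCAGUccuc
Mir193b: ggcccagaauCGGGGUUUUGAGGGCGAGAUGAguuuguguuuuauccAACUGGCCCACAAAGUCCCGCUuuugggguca

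Library totals ran from 7866583 to 18832842 counts in liver and from 9066683 to 17714156 in eWAT. The tissues carried their markers: miR-122-5p, the hepatocyte miRNA, was at 829473 CPM (counts divided by the TMM-scaled library total and put on the usual common total) in LF liver and 675 in LF eWAT, and of 12 adipocyte-list miRNAs 8 were higher and 2 lower in LF eWAT by the edgeR quasi-likelihood test, against 31.4% and 16% of all miRNAs tested. Liver LF library 4 and liver HF library 6 stood apart, with 316 and 368 miRNAs detected against 540 to 633 in the other 16 liver libraries. Among eWAT libraries, LF libraries 1 and 4 carried a summed 13953 and 17612 CPM of 10 epithelial miRNAs (the miR-200 family and others), against 53.7 to 262 CPM in the other 16. Results that rest on these 4 libraries are given with and without them. In bulk tissue, fewer cells of a type and less RNA per cell cannot be told apart.

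In eWAT, miR-365-3p and miR-193a-5p were abundant and the other members were rare. Mean levels over the 18 eWAT libraries were 677 CPM ± 152 (SD) for miR-365-3p, which ranked 69 among all mature miRNAs, and 258 CPM ± 50.4 for miR-193a-5p, which ranked 100. The lowest miR-365-3p library, at 367 CPM, was above the highest miR-193a-5p library, at 326 CPM. After them came miR-193b-3p at 10.7 CPM ± 4.07, miR-193b-5p at 3.57 CPM ± 1.18 and miR-193a-3p at 2.45 CPM ± 1.37. These rare neighbours overlapped: miR-193b-5p ran from 1.57 to 6.11 CPM, reaching above the lowest miR-193b-3p library at 3.74 CPM, and miR-193a-3p ran from 0.613 to 5.64 CPM. The members are all 22 bases long, so no length scaling was needed, but different sequences are not captured with equal efficiency in a small RNA library. Levels of different miRNAs are therefore set side by side as counts only.

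In liver the order differed at the bottom. The mean of miR-365-3p was 292 CPM ± 39.3 over 18 libraries and that of miR-193a-5p 254 CPM ± 44.8, with overlapping ranges of 210.3 to 376 and 185 to 365 CPM. Here miR-193a-3p came next, at 3.98 CPM ± 5.61, followed by miR-193b-3p at 1.55 CPM ± 2.20 and miR-193b-5p at 0.191 CPM ± 0.401. The spread of these 3 was larger than their means, and their ranges overlapped. LF library 4 and HF library 6, which stood apart, had 12.3 and 23.9 CPM of miR-193a-3p and 7.36 and 6.52 CPM of miR-193b-3p. In the other 16 liver libraries the medians were 2.34 and 0.382 CPM, and the highest levels 4.08 and 2.99 CPM. The median of miR-193a-3p in the 16 eWAT libraries that did not stand apart was 2.07 CPM. Of 18 liver libraries, 1 had no count of miR-193a-3p, 6 had none of miR-193b-3p and 14 had none of miR-193b-5p. The HF liver group had no count of miR-193b-5p in any of its 6 libraries, which allows a level of up to 0.0485 CPM.

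**Figure D1:**
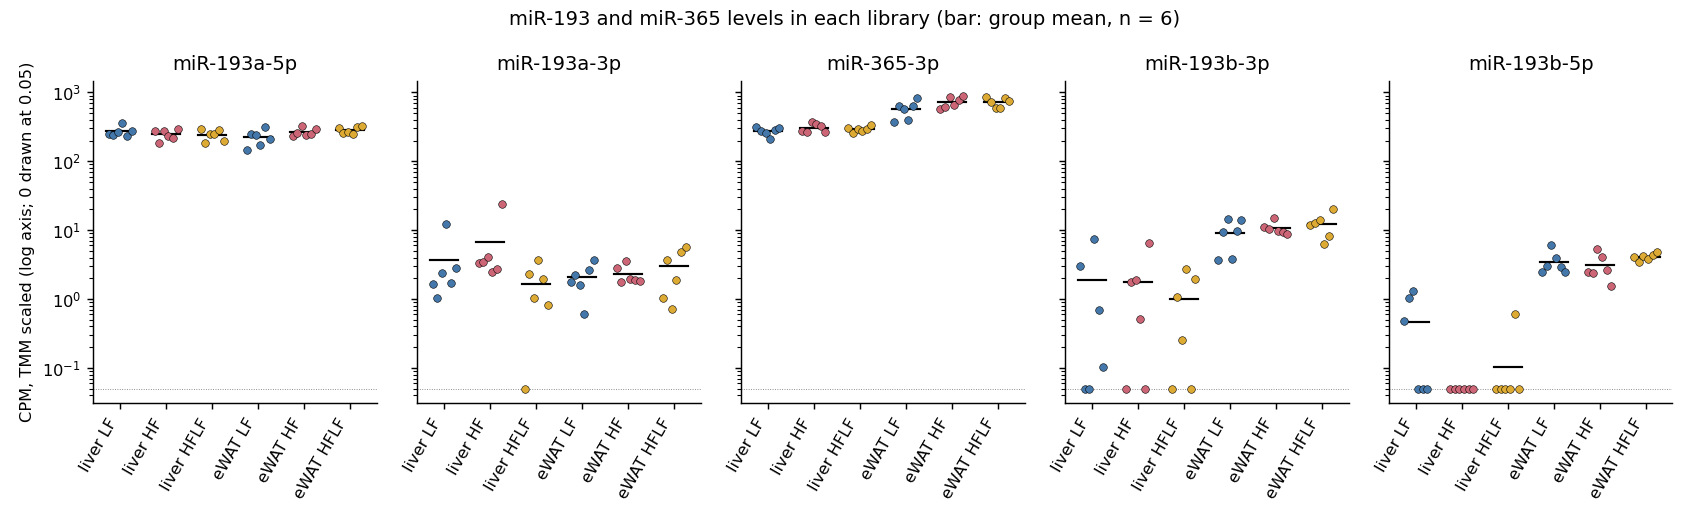
Level of each member in CPM (TMM scaled, log axis, libraries without a count drawn at 0.05) in each of 36 libraries; points are libraries and bars are group means of 6. The points of miR-365-3p lie between 367 and 897 CPM in eWAT and between 210.3 and 376 CPM in liver, and most liver points of miR-193b-5p lie at the line for no count.

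Counts were split unequally between the arms of the miR-193 hairpins, and in opposite directions at the 2 loci in pooled eWAT counts. Because arms may be captured with unequal efficiency, these are shares of counts and no measure of arm use. The 5p arm held 99.1% of miR-193a counts in eWAT (94608 of 95512, 95% Wilson interval 98.99% to 99.11%) and 98.3% in liver (38749 of 39436, 98.1% to 98.4%). In single libraries the share ran from 98.3% to 99.7% in eWAT and from 92.5% to 100% in liver. The lowest value was that of liver HF library 6 at 92.5% (91.6% to 93.2%), followed by liver LF library 4 at 96.7% (95.8% to 97.5%), and every other library of either tissue was at 98.2% or above. Reads were amplified and carry no tag that marks a molecule, so these intervals hold for the error of counting alone. At the miR-193b hairpin the 3p arm, the one with the seed shared with miR-193a-3p, held 75.2% of counts in eWAT (3905 of 5195, 74.0% to 76.3%). Single eWAT libraries ran from 49.1% to 84.9%, with LF libraries 4 and 1 lowest at 49.1% and 60.1%. In liver only 7 of 18 libraries had 10 or more miR-193b counts, and no arm share is given for that tissue.

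Counts with the shared seed ACUGGCC came mainly from miR-193b in eWAT and mainly from miR-193a in liver. The miR-193a share of all miR-193 3p counts was 18.8% in eWAT (904 of 4809, 17.7% to 19.9%) and 73.2% in liver (687 of 939, 70.2% to 75.9%). By library it ran from 4.94% to 37.2% in eWAT. Among the 17 liver libraries with such counts it ran from 29.0% to 100%, so liver HFLF library 6 (29.0%) and liver LF library 1 (35.9%) fell within the eWAT range. Of the 939 liver counts, 401 were from HF library 6 (share 78.6%) and 96 from LF library 4 (62.5%), the libraries with few miRNAs detected. The pooled liver share and its interval therefore rest largely on these libraries. The median of the 17 libraries was 78.6%. The ratio of miR-193b-3p to miR-193a-3p within a library does not depend on library scaling. On the log2 scale, with 0.5 added to each count, it averaged 2.11 ± 0.72 (SD, n = 6) in LF eWAT and -2.26 ± 2.18 in LF liver. In HF it averaged 2.25 ± 0.20 and -2.96 ± 2.29, and in HFLF 2.30 ± 1.29 and -1.17 ± 2.15. Liver HFLF library 1 held no count of either arm, so its ratio of 0 comes from the added 0.5 alone. In all, 6 of 18 liver libraries held no miR-193b-3p count (LF 2 and 3, HF 1 and 5, HFLF 1 and 5). Their ratios, and so the size of the liver means and differences, depend on the added 0.5. The tissues did not overlap in LF or HF and overlapped in HFLF. The exact 2-sided permutation test over all 924 assignments of 6 against 6 gave an adjusted p of 0.0390 for each of the 3 differences, 4.37 ± 0.94 (SE), 5.21 ± 0.94 and 3.47 ± 1.02, adjusted over 36 ratio tests. Without the 4 libraries that stood apart the differences were 4.83 (adjusted p 0.0816 by the exact test on fewer assignments), 5.43 (0.0390) and 3.47 (0.0390). Without liver HFLF library 1 the HFLF difference was 3.70 ± 1.16 (adjusted exact permutation p 0.0390). The HFLF call was also lost without any 1 of the 6 HFLF eWAT libraries or without HFLF liver library 3 or 5, where the adjusted permutation p ran from 0.0519 to 0.104.

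The chromosome 16 locus contributed more of the assignable counts in eWAT than in liver. Counts of miR-193b-5p, miR-193b-3p and miR-365-1-5p were set against those and the counts of miR-193a-5p, miR-193a-3p and miR-365-2-5p. Chromosome 16 made up 5.07% ± 1.27 (SD over 18 libraries) in eWAT, from 3.38% to 7.65%, and 0.597% ± 0.609 in liver, from 0% to 1.99%. No eWAT library overlapped any liver library, and liver LF library 4 (1.83%) and liver HF library 6 (1.99%) were the highest of liver. Pooled over libraries, the miR-365-2 share of miR-365 5p counts was 96.3% in eWAT (5162 of 5359, 95.8% to 96.8%) and 99.95% in liver (2102 of 2103, 99.73% to 99.99%), where miR-365-1-5p was found with 1 count in 18 libraries. By library these shares overlapped, from 92.7% to 100% in eWAT and from 98.4% to 100% in liver. The ratio of miR-365-3p to miR-193a-5p counts was 2.63 ± 0.43 in eWAT, from 1.97 to 3.93, and 1.19 ± 0.27 in liver, from 0.576 to 1.73, again without overlap. The ratio uses 1 of the 2 lines of miR-365-3p, so its size depends on that choice. These shares and this ratio are descriptions and were not tested.

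**Figure D2:**
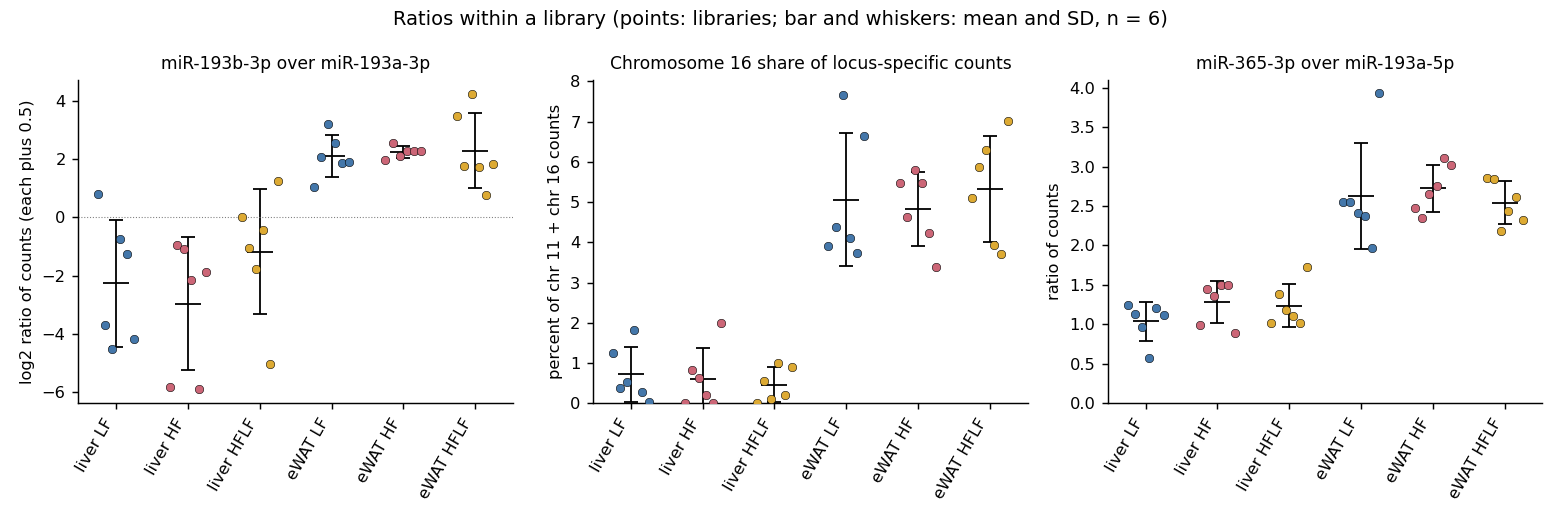
Ratios within a library, which need no scaling: log2 ratio of miR-193b-3p to miR-193a-3p counts (left), share of assignable counts from the chromosome 16 locus in percent (middle) and ratio of miR-365-3p to miR-193a-5p counts (right). Points are libraries, bars and whiskers are mean and SD of 6; in the middle panel eWAT libraries lie at 3.38% or more and liver libraries at 1.99% or less.

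The comparison of eWAT with liver in each diet group asked which members were higher in fat than in liver. In each of LF, HF and HFLF, 3 of 5 members were higher in eWAT by the edgeR quasi-likelihood test (adjusted p under 0.05): miR-365-3p, miR-193b-3p and miR-193b-5p. None was lower. The last passed the filter on low counts only through its eWAT libraries, so its call adds nothing to the count, and 2 of the other 4 members were called. Over all 681 miRNAs tested, 31.4% were higher and 16% lower in eWAT in LF (47.4% called), 32% and 17.6% in HF (49.6%) and 29.4% and 19.2% in HFLF (48.6%). The median difference of all tested miRNAs was itself above 0, at 0.60, 0.48 and 0.27 on the log2 scale, and it rose to 1.87, 1.66 and 1.39 when libraries were scaled by their totals only. Differences are therefore given with their distance from that median too. The totals of liver libraries are dominated by miR-122-5p, and the part of that in the shift was not tested.

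For miR-365-3p, the arm shared by both loci, the LF liver libraries had a lowest, median and highest level of 210.3, 279 and 310.2 CPM, and the LF eWAT libraries 367, 603 and 840.0 CPM. In HF they were 262, 299 and 376 CPM in liver against 575, 717 and 897 CPM in eWAT. In HFLF they were 256, 291 and 339.6 CPM against 585, 738 and 859.8 CPM. Every eWAT library was above every liver library of its diet group, and eWAT LF libraries 1 and 4 were the lowest of eWAT. The fitted differences were 1.07 ± 0.16 (log2, SE, n = 6 against 6, edgeR adjusted p 1.68e-06) in LF, 1.24 ± 0.17 (9.87e-08) in HF and 1.31 ± 0.17 (3.02e-08) in HFLF, and they stayed past the threshold under every alternative run. They lay 0.47, 0.76 and 1.04 above the median of all miRNAs, at percentiles 59.2, 65.1 and 67.1, so many miRNAs differed more between the tissues.

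For miR-193b-3p, the more frequent arm of its hairpin, the LF liver libraries had a lowest, median and highest level of 0, 0.396 and 7.36 CPM, against 3.74, 9.44 and 14.7 CPM in LF eWAT. In HF they were 0, 1.14 and 6.52 CPM against 8.78, 9.995 and 15.1 CPM, and in HFLF 0, 0.668 and 2.73 CPM against 6.33, 12.3 and 20.1 CPM. The tissues did not overlap in HF and HFLF. In LF they did, through liver library 4, the highest of liver, and eWAT libraries 1 and 4, the lowest of eWAT. Differences were 2.32 ± 0.98 (log2, SE, edgeR adjusted p 0.0477) in LF, 2.57 ± 0.97 (0.0260) in HF and 3.56 ± 1.02 (0.00401) in HFLF, or 1.73, 2.09 and 3.29 above the median of all miRNAs. The LF call was lost with DESeq2 size factors (edgeR adjusted p 0.0522), without a filter (0.0706) and with only the 12 LF libraries (0.104), and it held at 3.90 (0.00115) without the 4 libraries that stood apart. It was also lost without LF library 2, 3, 5 or 6 of either tissue (edgeR adjusted p 0.0593 to 0.1). The HF call was lost with only the 12 HF libraries (0.0618) and without eWAT HF library 3, 5 or 6 or liver HF library 1, 3, 4 or 5 (0.0501 to 0.0787), and it held at 3.69 (0.000919) without the 4 libraries.

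The 5p arm of the same hairpin, miR-193b-5p, was nearly confined to eWAT in these libraries. Liver held 4, 6 and 6 counts in LF libraries 1 to 3, 5 counts in HFLF library 5 and none in the other 14. Lowest, median and highest eWAT levels were 2.48, 2.95 and 6.11 CPM in LF, 1.57, 2.54 and 5.41 CPM in HF and 3.45, 4.13 and 4.81 CPM in HFLF, all above every liver library. Mean levels in eWAT were 7.40-fold those in liver in LF and 40.7-fold in HFLF, and at least 63.8-fold higher in HF against the level of 3 counts over the HF liver group. The HFLF fold rests on the 5 counts of liver library 5, without which that group is at 0 too. The edgeR differences were 2.93 ± 0.91 (adjusted p 0.00753) in LF and 5.25 ± 1.05 (8.68e-05) in HFLF, and adjusted p was 3.09e-06 in HF, where no fitted fold is given. The LF difference was 3.57 without liver LF library 3 and 4.21 with library totals only. This member passed the filter on low counts only through its eWAT libraries, so that it differed between the tissues follows in part from the filter.

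The abundant arm of the chromosome 11 hairpin, miR-193a-5p, did not pass the test between the tissues in any diet group. Its lowest, median and highest levels were 232, 259.8 and 365 CPM in LF liver and 144, 227 and 319 CPM in LF eWAT. They were 185, 256 and 294 CPM against 232, 256 and 321 CPM in HF, and 185, 247 and 299 CPM against 247, 284 and 326 CPM in HFLF. The ranges overlapped in each diet group. The differences were -0.29 ± 0.17 (log2, SE, edgeR adjusted p 0.151), 0.11 ± 0.17 (0.607) and 0.23 ± 0.17 (0.267), or -0.89, -0.37 and -0.04 relative to the median of all miRNAs. Their sign and call depended on the scaling: with library totals only they were 1.03 (adjusted p 2.91e-06), 1.28 (5.81e-08) and 1.36 (2.06e-08), while relative to the median they were -0.84, -0.38 and -0.03. In HFLF the test also passed with DESeq2 size factors (0.46, adjusted p 0.0482) and with DESeq2 itself (0.46, adjusted p 0.0439), and in LF without eWAT library 5 (-0.40, edgeR adjusted p 0.0496). The partner arm from the same locus, miR-365-2-5p, was likewise not called, at 14.4 CPM ± 2.65 over 18 eWAT and 13.9 CPM ± 5.41 over 18 liver libraries.

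The rare arm miR-193a-3p was not called between the tissues either, with differences of -0.79 ± 0.71 (edgeR adjusted p 0.367) in LF, -1.54 ± 0.71 (0.0692) in HF and 0.86 ± 0.71 (0.329) in HFLF. Its LF liver libraries had a lowest, median and highest level of 1.05, 2.05 and 12.3 CPM and its HF liver libraries 2.43, 3.41 and 23.9 CPM, where the highest were the 2 liver libraries with few miRNAs detected. HFLF liver ran from 0 to 3.72 CPM, and eWAT from 0.613 to 3.71, 1.74 to 3.53 and 0.719 to 5.64 CPM in LF, HF and HFLF. Without the 4 libraries that stood apart, the LF difference was 0.41 (edgeR adjusted p 0.649) and the HF difference -0.46 (0.535). With library totals only, the LF difference was 0.56 (0.485) and the HFLF difference 1.94 (0.0196). In HF, DESeq2 (-1.68, adjusted p 0.0282), a fit of the 12 HF libraries alone (-1.86, 0.0308) and the fit without eWAT library 3 or liver library 1, 3 or 5 (0.0265 to 0.0355) passed the threshold.

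The locus-specific arm miR-365-1-5p, from the chromosome 16 cluster, had 1 count in liver and 197 in eWAT. In LF the ratio of counting rates was 9.25, with an exact 95% interval of 1.52 to 379 for counting error. In HF and HFLF, where liver had none, it was at least 11.5-fold and 13.8-fold higher in eWAT against the level of 3 counts over the liver group. It passed the filter on low counts only through its eWAT libraries and was not tested within liver, so these values are a description. With 0 to 28 counts in an eWAT library, it was the least abundant of the assignable arms.

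**Figure D3:**
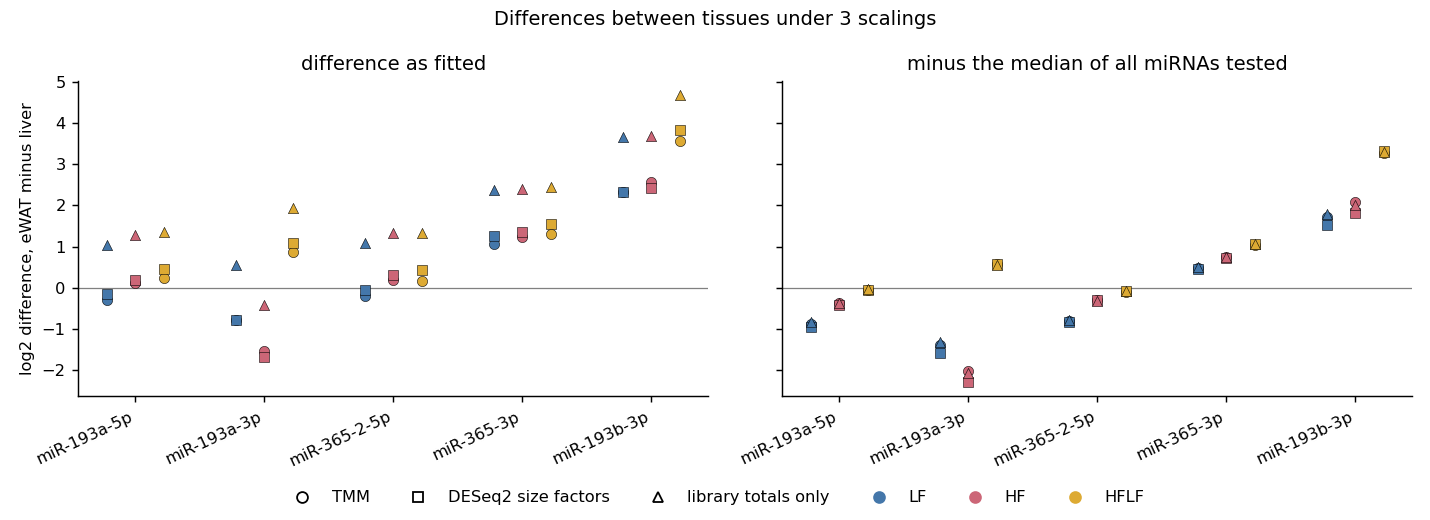
Log2 difference between eWAT and liver, as fitted (left) and minus the median of all miRNAs tested (right), under 3 scalings (symbols) in 3 diet groups (colours); miR-193b-5p and miR-365-1-5p, with groups at 0, are not drawn. On the left miR-193a-5p lies on either side of 0 depending on the scaling, between -0.29 and 1.36, and on the right at or below -0.03; miR-365-3p lies above 0 on both sides.

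Within liver, no member was called between diet groups. Of the 5 members, 4 passed the filter, and edgeR called 0 of 4 in each of HF minus LF, HFLF minus LF and HFLF minus HF, against 0% of all 478 miRNAs tested. At an unadjusted p under 0.05 it gave 16, 14 and 5 of 478, among them 1 member, and DESeq2 called 0 in each. That member was miR-193a-3p in HFLF minus HF, at -2.38 ± 0.93 (log2, SE, edgeR adjusted p 0.999), with HF library 6 at 23.9 CPM and the other HF libraries at 2.43 to 4.08 CPM. Without the libraries that stood apart it was -0.98 ± 0.70 (adjusted p 0.986). The abundant miR-365-3p differed by 0.22 ± 0.12 in HF minus LF (95% interval -0.02 to 0.46) and 0.06 ± 0.12 in HFLF minus LF (-0.18 to 0.30), and miR-193a-5p by -0.09 ± 0.23 (-0.54 to 0.35) and -0.22 ± 0.23 (-0.66 to 0.23). The intervals of miR-193b-3p were wide, from -2.71 to 2.93 and from -3.99 to 1.77, so differences of several-fold were not detectable at its depth of 0 to 86 counts a library.

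Within eWAT no member was called either. All 5 passed the filter, and edgeR called 0 of 5 in each comparison, against 0% of 638 miRNAs tested. At an unadjusted p under 0.05 it gave 49 miRNAs in HF minus LF, 98 in HFLF minus LF and 21 in HFLF minus HF, and DESeq2 called 16, 33 and 0, none of them a member. HF minus LF and HFLF minus LF share the LF libraries. For miR-365-3p the means were 577 CPM ± 173 (SD, n = 6) in LF, 729 CPM ± 133 in HF and 724 CPM ± 112 in HFLF, and the groups overlapped. Its differences were 0.33 ± 0.17 (log2, SE, edgeR adjusted p 0.719) in HF minus LF and 0.33 ± 0.17 (0.396) in HFLF minus LF. For miR-193a-5p they were 0.25 ± 0.16 (0.867) and 0.35 ± 0.16 (0.286), the latter the only member comparison in eWAT at an unadjusted p under 0.05. For miR-193b-3p they were 0.22 ± 0.33 (0.887) and 0.41 ± 0.33 (0.621). In HFLF minus LF all 5 members were above 0, with a median of 0.35, against 293 of 638 miRNAs and a median of -0.04. In HFLF minus HF the members ran from -0.0043 (miR-365-3p) to 0.43 (miR-193b-5p).

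**Figure D4:**
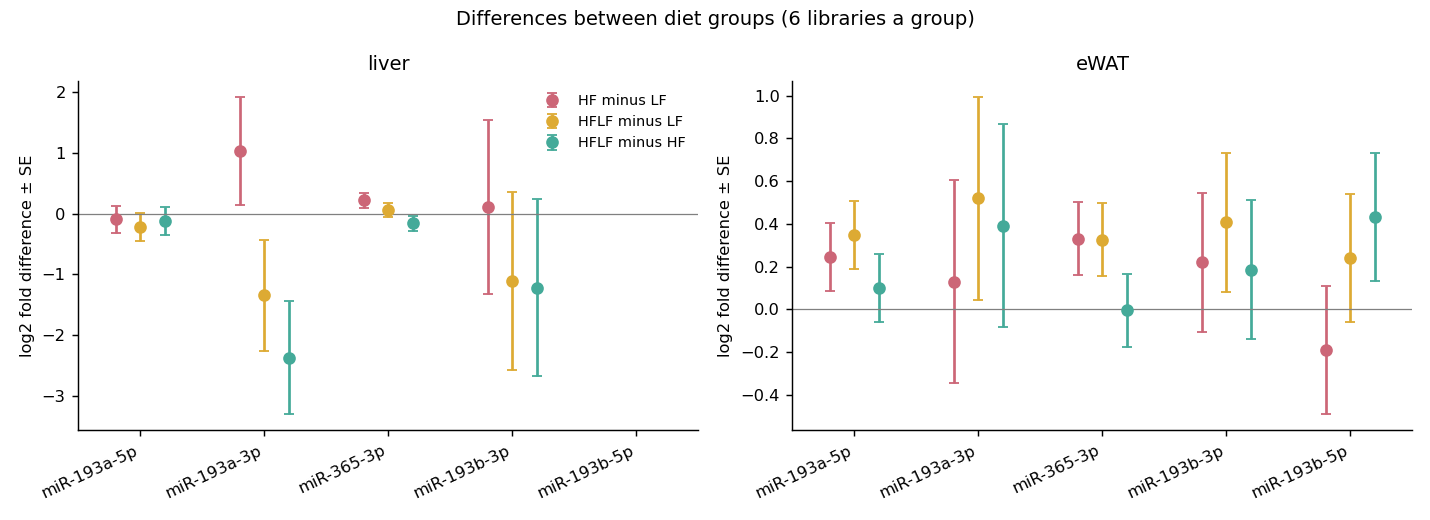
Log2 difference between diet groups for each member in liver (left) and eWAT (right), with the standard error of the fit; miR-193b-5p was not tested in liver. In eWAT all 5 HFLF minus LF points lie above 0, and none passed the test.

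Those eWAT differences moved with 2 LF libraries. LF libraries 1 and 4, which carried the epithelial miRNAs, had 367 and 404 CPM of miR-365-3p against 575 to 897 CPM in the other 16 eWAT libraries, 144 and 171 CPM of miR-193a-5p against 214 to 326 CPM, and 3.74 and 3.81 CPM of miR-193b-3p against 6.33 to 20.1 CPM. Each was below all other eWAT libraries for these 3 members. For miR-193b-5p (2.48 and 3.95 CPM against 1.57 to 6.11 CPM) they lay within the others. For miR-193a-3p (1.79 and 0.613 CPM against 0.719 to 5.64 CPM) LF library 4 was the lowest and LF library 1 lay within. Their summed endothelial list (both arms of miR-126a) was 7436 to 7617 CPM against 11103 to 18704 CPM, their summed adipocyte list was 167840 to 175578 CPM against 139839 to 231088 CPM. Their summed striated muscle list was 2357 to 2470.0 CPM against 320.6 to 2367 CPM, their erythroid list 1730 to 2157 CPM against 2499 to 5782 CPM, and their hepatocyte list 7911 to 9315 CPM against 4616 to 7128 CPM. No epithelial miRNA was at 0 in all eWAT libraries. Without them, HFLF minus LF was 0.09 ± 0.14 for miR-365-3p, 0.13 ± 0.13 for miR-193a-5p and 0.01 ± 0.26 for miR-193b-3p, and HF minus LF was 0.12 ± 0.14, 0.05 ± 0.13 and -0.15 ± 0.26. The part of other cells in the levels of the 2 libraries was not tested.

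**Figure D5:**
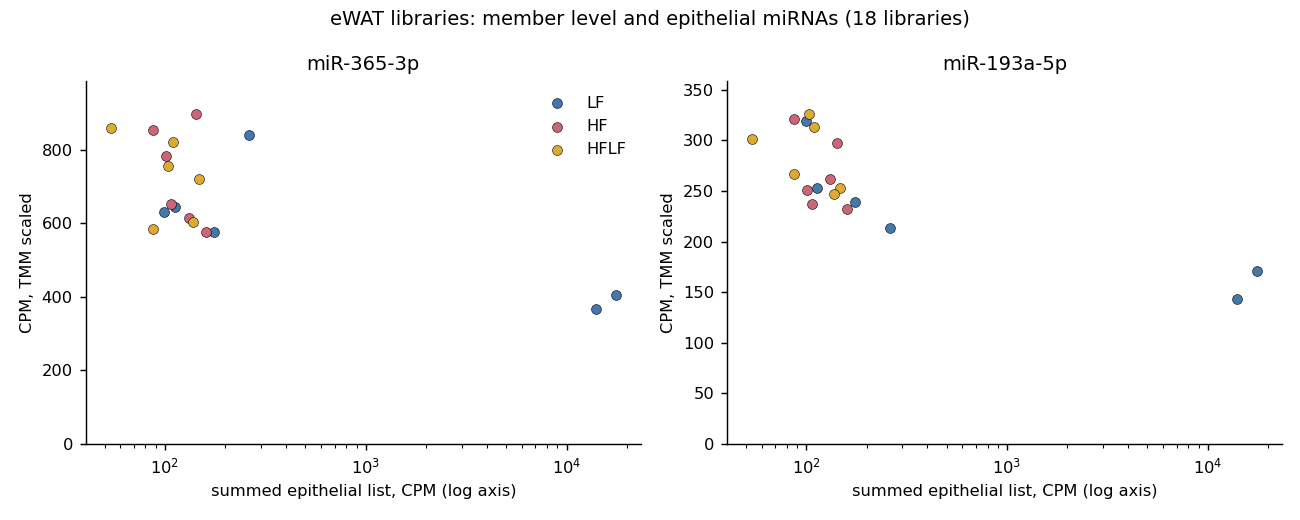
Level of miR-365-3p (left) and miR-193a-5p (right) against the summed level of 10 epithelial miRNAs (log axis), both in CPM, in 18 eWAT libraries coloured by diet group. LF libraries 1 and 4, at 13953 and 17612 CPM of epithelial miRNAs, have the lowest levels of both members.

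Whether a diet group differed from LF by unequal amounts in the tissues was tested with an interaction term over all 36 libraries. For HF, 1 of 5 members was called, miR-193b-5p (edgeR adjusted p 0.0476), against 2.5% of 681 miRNAs (1.32% higher and 1.17% lower). This member passed the filter on low counts only through its eWAT libraries. Its call rests on the 4, 6 and 6 counts of LF liver libraries 1 to 3 against none in HF liver. Its level in eWAT was 3.49 CPM ± 1.39 in LF and 3.10 CPM ± 1.40 in HF. The call was lost under 6 alternatives and without any 1 library of these groups other than liver LF library 4, 5 or 6 (edgeR adjusted p over these, 0.05 to 1), and it held with DESeq2 (adjusted p 0.00515). For HFLF, 0 of 5 members were called, against 1.91% of miRNAs (0.294% higher and 1.62% lower). The count at an unadjusted p under 0.05 was 80 of 681 there, among them 1 member, miR-193a-5p at 0.52 ± 0.24 (adjusted p 0.347), and DESeq2 called 28. Without HFLF liver library 5, the library with 5 counts, miR-193b-5p was called for HFLF too (adjusted p 0.0447).

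Within a tissue, the levels of some members went together across libraries after the mean of each diet group was subtracted. In 13 pairs tested by permutation within diet groups, miR-193a-5p and miR-365-3p correlated in eWAT with Pearson's r = 0.72 (permutation p 0.00777, adjusted 0.0505) and Spearman's rho = 0.76 (0.00221, adjusted 0.0287) over 18 libraries. Without the 2 libraries farthest from the median in miR-193a-5p, r was 0.65, and without LF libraries 1 and 4 it was 0.38, so the relation rests on those libraries in part. In liver the same pair gave r = 0.48 (permutation p 0.0632, adjusted 0.205) and rho = 0.27 (0.309, adjusted 0.561). Other miRNAs went closer with miR-193a-5p by the same centred r, the nearest being miR-378b (0.80) in eWAT and let-7b-5p (0.93) in liver. Members of a library share its depth and scaling, and the permutation p does not separate that from a relation between members. The seed-sharing pair miR-193a-3p and miR-193b-3p gave r = 0.67 in liver (permutation p 0.00310, adjusted 0.0403), with rho = 0.51 (0.0358, adjusted 0.233), and r = 0.38 without the 2 farthest libraries, which are LF library 4 and HF library 6. The neighbours of the chromosome 16 cluster, miR-193b-3p and miR-365-3p, gave r = 0.59 in eWAT (permutation p 0.0402, adjusted 0.174) with rho = 0.41 (0.144, adjusted 0.394), and r = 0.08 without LF libraries 1 and 4. In liver they gave r = 0.03 (0.921, adjusted 0.998) and rho = 0.15 (0.559, adjusted 0.606).

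The miRNAs whose pattern over the 18 eWAT libraries was most like a member's were found by the same centred Pearson's r among 637 others. For miR-193b-3p they were miR-203b-3p (0.86), miR-126a-3p (0.83), the endothelial miRNA, and miR-378a-3p (0.78), which is made from an intron of Ppargc1b. Without LF libraries 1 and 4 their r fell to 0.65, 0.53 and 0.53. For miR-365-3p they were miR-322-5p (0.82), miR-203b-3p (0.78) and miR-664-3p (0.78), with 0.65, 0.50 and 0.46 without those libraries. For miR-193a-3p they were miR-7213-5p (0.67), miR-350-3p (0.64) and miR-140-5p (0.60). In liver, among 477 others, miR-29a-3p was the nearest to both miR-193a-3p (0.83) and miR-193b-3p (0.79). The next were miR-195a-5p (0.82) and miR-106b-5p (0.81) for miR-193a-3p, and miR-15a-5p (0.79) and miR-192-3p (0.77) for miR-193b-3p. For miR-365-3p in liver they were miR-345-5p (0.68), miR-664-3p (0.62) and miR-221-3p (0.61). Without LF library 4 and HF library 6 the first of each was at 0.53, 0.70 and 0.56. All points of such a correlation share the libraries' depth and scaling, and no p is given.

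Other miRNAs reported to act in brown and beige fat were followed in 2 lists. Of 14 reported to promote it, edgeR called 1 higher and 6 lower in LF eWAT than in LF liver, 2 and 9 in HF and 1 and 8 in HFLF, with median differences of -0.35, -0.44 and -0.41, against 0.60, 0.48 and 0.27 over all miRNAs. Of all 681 tested, 31.4% were higher and 16% lower in LF, 32% and 17.6% in HF and 29.4% and 19.2% in HFLF. Its most abundant members were miR-26a-5p (39608 CPM ± 11158 in LF liver and 49838 CPM ± 2952 in LF eWAT, adjusted p 0.0973), miR-26b-5p (21209 and 10542 CPM, adjusted p 2.19e-08) and miR-30c-5p (13471 and 10684 CPM, adjusted p 0.0358). Of 11 reported to restrain it, 10 were tested, and 6 were higher in each diet group and 1, 0 and 1 lower, with medians of 0.86, 0.80 and 0.79. There miR-125b-5p was at 5834 CPM ± 813 in LF liver and 10383 CPM ± 2430 in LF eWAT (edgeR adjusted p 1.42e-05), miR-27b-3p at 7530 CPM ± 3189 and 4501 CPM ± 472 (0.0308) and miR-199a-3p at 2248 CPM ± 639 and 4178 CPM ± 1843 (0.000909). The lists hold miRNAs of other tissues too. Among them are miR-455-3p of the hepatocyte list, miR-182-5p of the epithelial list and miR-133a-3p of the striated muscle list. The members called higher in eWAT can be read beside the lists only as counts, and without miR-193b-5p, which passed the filter on low counts only through eWAT. By edgeR, none of either list was called between diet groups in liver or eWAT, against 0% of all 478 and 638 miRNAs tested. This null is therefore not particular to the lists.

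In the authors' deposited log2 tables, which hold 180 miRNAs in 18 eWAT libraries and 171 in 16 liver libraries, only miR-193a-5p and miR-365-3p of the members are listed. The 16 liver libraries are those other than LF library 4 and HF library 6, the libraries with few miRNAs detected. In the authors' deposited tables the mean log2 level of miR-365-3p was 10.05 in eWAT and 8.89 in liver, and that of miR-193a-5p 7.67 and 7.60. Relative to the log2 CPM computed here, and after the mean offset of each miRNA was subtracted, the largest gap of a library was 0.03 in eWAT and 0.08 in liver. These gaps compare libraries within a miRNA and leave out its level. The authors' means set miR-365-3p further above miR-193a-5p than the counts used here. In those counts the ratio, which is not on the log2 scale, was 2.63 in eWAT and 1.19 in liver, over 18 libraries each. The authors' liver means cover 16 libraries. The counts used here take 1 of the 2 lines of miR-365-3p, which held 293904 and 293960 counts, so its level depends on that choice. Whether the authors' levels hold both lines, and the reason for this difference in level, was not tested.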

How the data were processed

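Raw read counts for mature miRNAs on their precursors were deposited by the authors, in a table of 2118 lines. Trimming used cutadapt, alignment used Bowtie and the build was GRCm38.p6, per the submitters' processing notes; no versions, settings or counting rules could be taken from them. The authors' deposited log2 tables, 1 for each tissue, were used only to compare levels. A further 36 normalized columns were not used. The column letters C, H and R were taken to stand for LF, HF and HFLF.

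For each mature name the line with the highest total was used. The fits used edgeR 4.0.16 in R 4.3.3 (TMM factors, filterByExpr with minimum count 10 and total 15, robust quasi-likelihood F test, Benjamini-Hochberg over all miRNAs tested, threshold 0.05), on the 18 libraries of a tissue or on all 36. The fits were also run on simulated counts with planted differences. That simulation modelled no libraries that stand apart, and its outcome is not given here. CPM uses TMM factors over the 36 libraries. Ratios within a library (0.5 added to each count) were compared by exact permutation in 36 tests. Correlations used log2 CPM with a prior count of 2 and 100000 permutations. Alternatives were DESeq2 1.42.0, other scalings, no filter, summed lines, fewer libraries, another pseudocount and a replicate block. The text names all 5 members, the miR-365 5p arms, the 3 nearest patterns of each 3p arm and up to 3 most abundant miRNAs of a list. Outside that rule it names the nearest pattern of miR-193a-5p. Members and lists were chosen with earlier results of these data known.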

Additional observations from a re-analysis of the deposited data

Results flagged for a closer look

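In 30 groups of 6 libraries (5 members in 6 groups), 5 held a library far from the other 5, with a gap to its nearest neighbour over 0.625 of the group's range. Chance gives about 1 in 20 such groups only where the values are independent and normally distributed. Here the same libraries recur for all 5 members, and the levels of rare members are skewed. A group with counts in a lone library, as for miR-193b-5p in liver HFLF, is flagged whatever its level. The number flagged therefore cannot be set against that rate, and no excess over chance is claimed. In liver LF, library 4 was the highest for miR-193a-5p at 365 CPM, with the next at 276 CPM, and for miR-193a-3p at 12.3 CPM, with the next at 2.82 CPM. In liver HF, library 6 was the highest for miR-193a-3p at 23.9 CPM, with the next at 4.08 CPM, and for miR-193b-3p at 6.52 CPM, with the next at 1.88 CPM. These are the 2 liver libraries with the fewest miRNAs detected, 316 and 368, and the part of that in these levels was not tested. In liver HFLF, library 5 was the only library with miR-193b-5p, at 0.609 CPM from 5 counts.

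The HF minus LF difference of miR-193b-5p differed between the tissues by an interaction term of 5.55 (log2, edgeR adjusted p 0.0476). The value depends on the prior count, because no HF liver library held a count, and is no measure of size.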

How the results depend on the processing

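Member differences under alternatives that left out no single library kept direction and call in 369 cases, reversed direction in 18, gained a call in 7 and lost one in 10; leaving out 1 library, these were 666, 36, 6 and 36. No member was called between diet groups of a tissue under any alternative run. The count called between tissues in HFLF rose from 3 to 5 with library totals only. In LF and HF it was 2 to 4 over all alternatives. All counts between tissues in this section include miR-193b-5p wherever it was called, although it passed the filter on low counts only through its eWAT libraries. The HF interaction count fell from 1 to 0 without the 4 libraries that stood apart (an alternative chosen after seeing the data), with DESeq2 size factors, summed lines, library totals, no filter or the replicate block, and was 0 to 1 on leaving out 1 library, as was the HFLF count. The cause was not tested.

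Same-numbered libraries deviated together, with a correlation over 0.1, in 0 to 2 of 6 pairs of a comparison, and 1 or 2 of 6 correlated best with their own number. Tissues of the same mouse need not deviate together, so whether equal numbers mark the same mouse was not settled. With the replicate block, the counts called between tissues were 3, 3 and 3, and 0 between diet groups. The ratio tests, then sign-flip tests of 6 pairs, called 0 between tissues against 4, with an adjusted exact p of 0.281 for each of the 4. With 6 pairs, even the smallest possible p stays above the threshold after adjustment, unless most of the ratio tests reach it. The loss of these calls therefore cannot tell whether the ratio differences hold within pairs. With the replicate block miR-193b-3p was at -0.77 in liver HF minus LF and -0.091 in the HF interaction, and miR-365-3p at 0.014 in eWAT HFLF minus HF. Without a filter the last was 0.011. With DESeq2, miR-193b-3p in liver HF minus LF was -0.0059.

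Without the 4 libraries, direction reversed for miR-193a-3p between tissues in LF (0.41) and in eWAT HF minus LF (-0.14), and for miR-193a-5p between tissues in LF (0.036) and in liver HFLF minus HF (0.048). It reversed for miR-193b-3p in eWAT HF minus LF (-0.15), in liver HFLF minus HF (0.20) and HFLF minus LF (0.43), and in the HF and HFLF interactions (-0.20 and -0.34), and for miR-365-3p in the HF interaction (-0.037). The miR-193a ratio of 3p to 5p between tissues in LF became 0.36. With library totals, miR-193a-3p and miR-193a-5p between tissues in LF became 0.56 and 1.03. With the 12 HF libraries alone miR-193a-5p between tissues became -0.12. With a pseudocount of 5 the miR-193b ratio of 3p to 5p between tissues became 0.19 in HF and 0.44 in HFLF.

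Leaving out 1 library at a time gave these ranges. For miR-193a-3p they were -1.03 to 0.13 between tissues in LF, -0.33 to 2.08 in liver HF minus LF, -0.10 to 0.33 in eWAT HF minus LF and -1.66 to 0.31 in the HF interaction. For miR-193a-5p they were -0.16 to 0.18 between tissues in HF, -0.26 to 0.069 in liver HF minus LF and -0.25 to 0.038 in liver HFLF minus HF. For miR-193b-3p they were -1.25 to 1.59, -1.74 to 0.44 and -1.84 to 0.16 in liver HF minus LF, HFLF minus LF and HFLF minus HF, -0.027 to 0.29 in eWAT HFLF minus HF and -0.96 to 1.34 in the HF interaction. For miR-365-3p they were -0.0066 to 0.087 in liver HFLF minus LF, -0.074 to 0.064 in eWAT HFLF minus HF and -0.085 to 0.29 in the HF interaction. The LF ratios between tissues ran from -0.37 to 0.20 for miR-193a and from -0.79 to 1.19 for miR-193b, 3p over 5p. The ratio tests called 2 to 5 between tissues and 0 to 1 between diet groups. Depth limits miR-193b in liver, where 6 of 18 libraries held no 3p count and 14 no 5p count.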
